A study of Mus musculus with 42 samples.

Results

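Oct4, the POU domain transcription factor encoded by Pou5f1, was targeted with an antisense morpholino in mouse embryos injected at the 1-cell stage, and transcript levels were measured on Affymetrix arrays 20 h later. Arrays were chosen by their titles: 3 arrays of embryos that received the Oct4 morpholino were set against 3 arrays of uninjected embryos of the same experiment, 6 of the 42 arrays of the series. The remaining arrays hold embryos injected against Sall4 or Nanog, embryos injected with a control oligomer, further uninjected embryos, and the same kinds of embryo 44 h after injection. The comparison addresses which transcripts differ between embryos injected with the Oct4 morpholino and uninjected embryos. Whether Oct4 protein was reduced is not measured on these arrays.

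All embryos were of the strain B6D2F1, with no transgene named in the labels, and were cultured in human tubal fluid medium with a serum supplement. Oct4 morpholino embryos had been injected, and their comparison group had not been injected with anything, so at 20 h the act of injection and the Oct4 oligomer cannot be told apart within this experiment. A morpholino is a stable antisense oligomer that blocks translation or splicing of its target RNA and need not remove that RNA; the labels do not say which action the Oct4 oligomer has. RNA was isolated with a PicoPure kit and amplified from small amounts with NuGEN reagents. The labels give neither the number of embryos per array nor their cell number, and in such bulk samples fewer cells of a type and less RNA per cell cannot be told apart.

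In the early mouse embryo, development starts on transcripts and proteins stored in the oocyte, most of which are cleared while the embryo's own genome is switched on, first in a minor and then in a major wave around the 2-cell stage. The major wave includes many genes for ribosome assembly, translation, splicing and protein turnover. Oct4 is present as a maternal product and later holds the inner cell mass and its pluripotent derivatives in their state; it binds the octamer motif, often together with Sox2.

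Levels are the deposited intensities, in which 1 unit is the deposited brightness of a probe set, and a gene is represented by its brightest probe set. Fold changes are differences of log2(intensity + 16), Oct4 morpholino minus uninjected, so a positive value means higher in Oct4 morpholino embryos, and the change of dim genes is understated. Tests are limma's moderated test over 15478 genes with Benjamini-Hochberg adjustment, and genes are said to have passed where the adjusted p was below 0.05. An exact permutation test of 3 arrays against 3 cannot give a p below 0.1, so each p depends on the spread that limma pools over the 14 groups and moderates across genes. Array medians were 30.7 to 33.3 in Oct4 morpholino embryos and 31.7 to 32.9 in uninjected embryos. Pearson correlations of log2 values were 0.937 to 0.949 between Oct4 morpholino arrays, 0.960 to 0.964 between uninjected arrays and 0.934 to 0.952 across the groups.

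Marker genes placed all 6 arrays at an early embryonic stage. Of 7 measured oocyte and early embryo markers, 7 lay above the median of the table, with summed levels of 15600 to 17090 in Oct4 morpholino embryos and 16151 to 16571 in uninjected embryos. The 4 measured transcripts of the 2-cell stage, Zfp352, Usp17la, Tdpoz1 and Arg2, summed to 9481 to 12901 in Oct4 morpholino embryos and 9847 to 11501 in uninjected embryos. Markers of granulosa and cumulus cells, which surround the oocyte, summed to 152 to 308 over 8 genes with the morpholino and 128 to 174 without it. In a longer list of 12 tested genes the sums did not overlap, at 658 to 1368 in Oct4 morpholino embryos and 394 to 534 in uninjected embryos. In that list 2 of the 12 lay below 0, the median log2 fold change was 0.11, 0 passed and 2 had an unadjusted p below 0.05. Much of the sum was Cyp11a1, a steroidogenic enzyme, at 424, 474 and 699 with the morpholino and 168, 283 and 173 without it (1.30, adjusted p = 0.136). Fshr and Inha, among the defining genes, stayed below 10 on each of the 6 arrays, Nr5a1 and Star read 41.4 to 109 over both groups, and Amh was at 109 on Oct4 morpholino replicate 3 but below 7 on the other arrays. The part of such cells in the results below was not tested. Markers of blood, stroma and fibroblasts summed to 174 to 198 over 9 genes in Oct4 morpholino embryos, against 127 to 175 in uninjected embryos. Of 7 genes of later lineages, 2 lay above the median of the table in a group. The sums of the 7 were 360 to 864 in Oct4 morpholino embryos and 279 to 484 in uninjected embryos. Krt18, a keratin gene, read 280, 323 and 119 with the morpholino and 188, 172 and 87.4 without it. Cdx2, a trophectoderm factor, read 355, 20.8 and 20.02 in Oct4 morpholino embryos and 11.4, 14.7 and 10.9 in uninjected embryos. For Cdx2 a single array, Oct4 morpholino replicate 1, was thus bright.

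Transcript levels fell far more often than they rose. With the Oct4 morpholino, 285 genes were lower and 27 were higher, 1.84% and 0.174% of the genes tested, while the median log2 fold change of all genes was -0.02. The genes that fell were mostly well expressed: their median level was 365 in Oct4 morpholino embryos and 882 in uninjected embryos, 127 of them exceeded 1000 without the morpholino, and their median log2 fold change was -1.18 (range -3.49 to -0.48). The genes that rose had a median level of 208 in Oct4 morpholino embryos and 42.6 in uninjected embryos, and 16 of the 27 averaged below 100 without the morpholino. Arrays of the groups did not overlap for 268 of the 285 and for 26 of the 27; over all genes tested, 11.0% lay wholly below and 8.57% wholly above. At an unadjusted p below 0.05, 1651 genes differed.

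How many genes pass depends strongly on which arrays estimate the spread. With the 24 arrays of the Oct4 and Sall4 experiments 91 were lower and 17 higher, of which 87 and 13 are among those above, and with the 6 arrays alone 12 were lower and 1 higher. Among the 312 genes that passed, the median SD within groups was 0.342 on the log2 scale over the 6 arrays, 0.354 over the 24 arrays and 0.204 over the 18 arrays of the Nanog experiment, and the test over all 42 arrays draws on all of these. Over all genes tested the same medians were 0.329, 0.469 and 0.459, so the low spread on the Nanog arrays belongs to the genes that passed. Single arrays mattered too. Leaving out uninjected replicate 1 gave 97 genes and leaving out uninjected replicate 3 gave 125, while the model without Oct4 morpholino replicates 2 or 3 called 133 and 174 and that without Oct4 morpholino replicate 1 called 528. That last array was the highest of its group for 188 of the 285 genes that fell. Adjusted p-values over the 24 arrays are therefore given for many of the genes below, and genes that lose their call there are named as such where they are described.

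**Figure D1:**
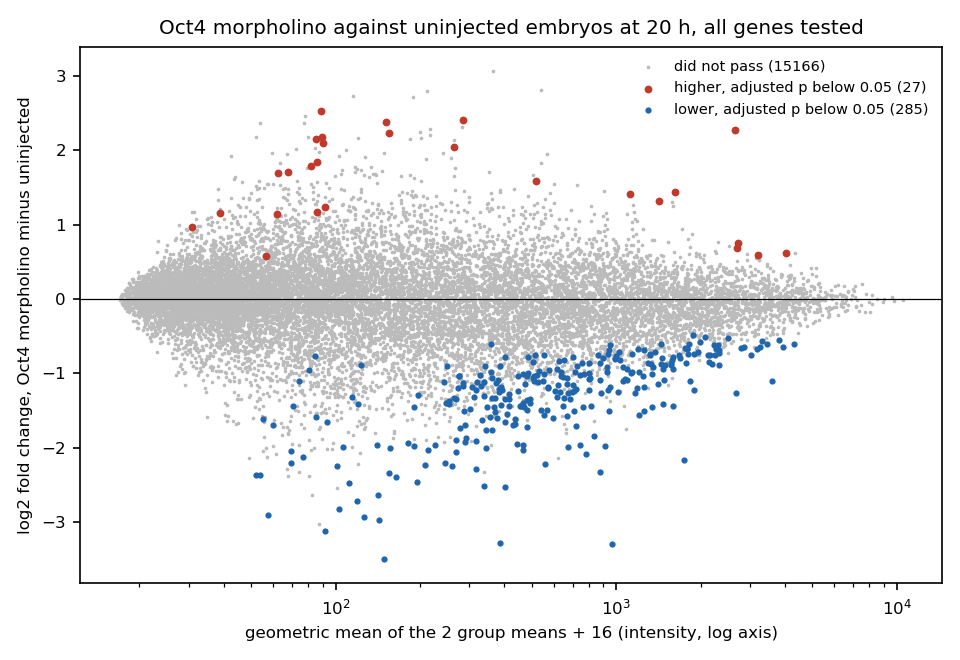
Log2 fold change (vertical axis, Oct4 morpholino minus uninjected) against the geometric mean of the group means plus 16 (intensity, log axis) for all 15478 genes tested. Blue points are the 285 genes that were lower and red points the 27 that were higher at an adjusted p below 0.05; blue points reach from dim to bright genes, and the genes that fell had a median level of 882 without the morpholino.

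Uninjected embryos of a separate experiment gave a further comparison. The uninjected embryos of the Oct4 and of the Sall4 experiment differed from each other in 248 genes, 1.60% of those tested. Of these, 195 were higher and 53 lower in the uninjected embryos of the Oct4 experiment, the reference for the 285 falls and 27 rises. The part of this lean in those counts was not tested. Of the 285 genes that fell with the Oct4 morpholino, 276 were also lower than in the uninjected embryos of the Sall4 experiment by their means, 239 passed against both uninjected groups as one, and 12 differed between the uninjected groups. Of the 27 that rose, 21 passed against both groups together and 0 differed between them. Against both groups the count over all genes was 619 (483 lower, 136 higher). These comparisons reuse the Oct4 morpholino arrays by which the genes were chosen, and that against both groups also reuses their uninjected arrays. Agreement is therefore in part built in, and the share over all genes to set beside the 276 was not counted.

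The mRNA that the morpholino targets did not pass as different. Pou5f1, on chromosome 17, read 3448, 2769 and 3662 in Oct4 morpholino embryos and 2666, 2706 and 3036 in uninjected embryos. The groups overlapped, and the log2 fold change of 0.22 did not pass (SE 0.186, adjusted p = 0.857), and the mRNA level is not a measure of the Oct4 protein. Of the 11 tested POU domain genes, 0 passed in limma's test (1 had an unadjusted p below 0.05), and their median log2 fold change was 0.22.

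Within the pluripotency network, 2 of 27 tested genes passed, both lower, and the list's median was 0.00. Sall4, a zinc finger factor that works with Oct4, read 2281, 1382 and 1363 in Oct4 morpholino embryos and 2764, 2537 and 2995 in uninjected embryos. Although the highest Oct4 morpholino array stayed below the lowest uninjected array, the fold change of -0.76 (SE 0.193, adjusted p = 0.03) did not pass over 24 arrays (adjusted p = 0.168), and a dimmer probe set of the gene gave -0.36. Dppa5a, an RNA-binding marker of pluripotent cells, read 965, 855 and 1006 with the morpholino and 1882, 1287 and 2072 without it (-0.85, adjusted p = 0.0145, over 24 arrays 0.128). The difference depended on the comparison group: the uninjected embryos of the Sall4 experiment averaged 557, below the 942 of Oct4 morpholino embryos, and against both uninjected groups the value was -0.04 (adjusted p = 0.973).

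Other network genes did not pass. Sox2, the partner of Oct4 on many of its sites, read 415, 632 and 360.5 in Oct4 morpholino embryos and 157, 174 and 170.1 in uninjected embryos; the arrays did not overlap, at an adjusted p of 0.116. Fgf4, a growth factor gene regulated by Oct4 and Sox2 in stem cells, read 34.1, 71.8 and 53.7 with the morpholino and 254, 163 and 174 without, again without overlap (adjusted p = 0.21). Nr5a2, an orphan nuclear receptor, averaged 360.4 ± 295 in Oct4 morpholino embryos and 761 ± 232 in uninjected embryos (SD, n = 3 each, adjusted p = 0.0907). Nanog itself was dim, at 118, 149.8 and 25.2 in Oct4 morpholino embryos and 39.5, 102 and 19.99 in uninjected embryos, and the groups overlapped (adjusted p = 0.849).

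Among the 15 largest falls, single enzymes and adaptors of unrelated processes stood beside each other. Kank4, an ankyrin repeat protein of the actin cytoskeleton, read 50.9, 10.8 and 26.7 in Oct4 morpholino embryos and 584, 438 and 387 in uninjected embryos. Its log2 fold change of -3.49 was the lowest of all genes that passed (SE 0.394, adjusted p = 1.80e-06, over 24 arrays 0.000251). Tmppe, a membrane protein with a metallophosphoesterase domain, read 680.1, 274 and 75.5 with the morpholino and 2509, 2442 and 2814 without it (-3.30, adjusted p = 1.42e-06, over 24 arrays 0.000981). The Oct4 morpholino arrays of Tmppe differed among themselves severalfold, yet each was far below every uninjected array, and a second, dimmer probe set gave -2.93. Acyp1, an acylphosphatase, read 35.9, 154 and 160.1 in Oct4 morpholino embryos and 1094, 1097 and 1139 in uninjected embryos, and its 2 other probe sets gave -3.07 and -3.22 beside -3.28 (adjusted p = 0.000143, over 24 arrays 0.0108).

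Apaf1, the scaffold on which initiator caspase is activated in apoptosis, read 47.9, 75.01 and 77.4 in Oct4 morpholino embryos and 431, 329 and 565 in uninjected embryos (-2.46, SE 0.548, adjusted p = 0.0118, over 24 arrays 0.00484). The other probe set of Apaf1 gave -0.77. Apaf1 was the only one of 25 tested apoptosis regulators to pass, and the list's median was -0.01. Ecsit, an adaptor in Toll signalling and in the assembly of mitochondrial complex I, read 52.3, 50.6 and 63.8 with the morpholino and 458, 318 and 314 without it. The fall of Ecsit (-2.39, adjusted p = 1.67e-05) passed in each of the 20 alternative settings, as did those of Kank4 and Eif3e. Inpp5e, a phosphoinositide phosphatase of the primary cilium, read 36.1, 27.98 and 59.9 in Oct4 morpholino embryos and 411, 277 and 319 in uninjected embryos (-2.64, adjusted p = 1.67e-05, over 24 arrays 0.000729). Its other probe set went the other way, at 177 with the morpholino and 108 without, a log2 difference of 0.58. Inpp5e did not pass with all probe sets averaged.

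The other 9 of the 15 largest falls had fold changes of -3.12 to -2.47. Slc66a1, an exporter of cationic amino acids from lysosomes, read 19.3, 9.90 and 8.18 in Oct4 morpholino embryos and 498, 255 and 89.04 in uninjected embryos, a wide spread without the morpholino. Atxn10 read 24.9, 48.9 and 18.02 with the morpholino and 377, 315 and 294 without, and Pign, an enzyme of glycosylphosphatidylinositol anchor synthesis, read 24.6, 42.6 and 25.8 with the morpholino and 289, 270.3 and 303 without. Both passed over 24 arrays (adjusted p = 0.0243 and 0.00934) and with the 6 arrays alone (adjusted p = 0.0462 each), but in 0 of the 6 models that left out 1 array. Other probe sets of each gene gave values on both sides of 0. Map10, a microtubule-associated protein, was at the floor in Oct4 morpholino embryos (12.8, 1.69 and 1.30) and at 145, 138 and 132 in uninjected embryos; the uninjected embryos of the Sall4 experiment averaged 37.5, and against both uninjected groups Map10 did not pass (adjusted p = 0.0843). Znrd2, Tex261, Neto2, Ifit1bl2 and Usf3 complete the group, of which Znrd2, Tex261 and Usf3 did not pass over 24 arrays (adjusted p = 0.108, 0.0674 and 0.104). Other probe sets gave -0.26 for Znrd2, 0.05 and -0.44 for Tex261, -0.96 and 0.17 for Neto2 and -0.07 for Ifit1bl2. With all probe sets averaged Znrd2, Tex261, Neto2 and Ifit1bl2 did not pass.

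**Figure D2:**
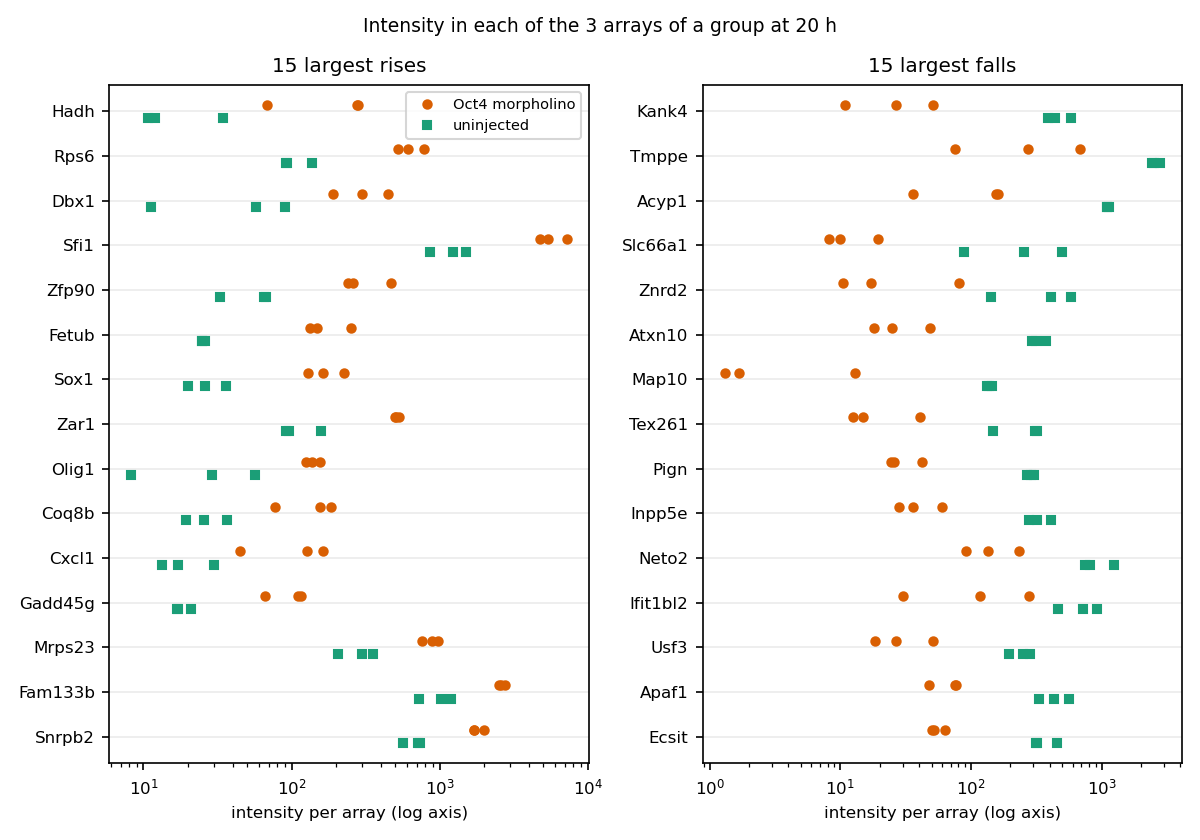
Intensity of each array (log axis) for the 15 largest rises and 15 largest falls, with Oct4 morpholino arrays as circles above and uninjected arrays as squares below each gene's line, 3 arrays a group. The groups do not overlap for any of the 30 genes, which the choice of genes required; many of the rises start from uninjected levels below 100.

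Rises were fewer, and the 15 largest ran from bright genes such as Sfi1 and Fam133b to genes near the floor without the morpholino. Sfi1, a centrin-binding protein known in yeast and human cells, read 7232, 4777 and 5391 in Oct4 morpholino embryos and 1232, 864 and 1496 in uninjected embryos (2.27, SE 0.308, adjusted p = 2.54e-05, over 24 arrays 0.00487). The groups lay far apart, while a dim second probe set of Sfi1 lay at 36.1 against 83.7. Rps6, a protein of the small ribosomal subunit that is phosphorylated downstream of mTOR, read 782, 519.8 and 608 in Oct4 morpholino embryos and 91.3, 138 and 93.5 in uninjected embryos (2.40, SE 0.410, adjusted p = 0.00065, over 24 arrays 0.00293). It was the one gene to rise with the 6 arrays alone, and its other probe set was near the floor in both groups, at 26.0 and 33.0. With all probe sets averaged Rps6 did not pass.

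Snrpb2, a protein of the U2 small nuclear ribonucleoprotein, read 1698, 1707 and 1994 in Oct4 morpholino embryos and 709, 568 and 738 in uninjected embryos (1.41, SE 0.163, adjusted p = 2.64e-06, over 24 arrays 0.000535). A second bright probe set of Snrpb2 gave 0.92. Mrps23, of the mitochondrial ribosome, read 969, 760.1 and 884 with the morpholino and 352, 301 and 204 without it (1.58, adjusted p = 0.00679, over 24 arrays 0.0215), and its other probe sets gave 0.83 and 1.04. Fam133b read 2782, 2586 and 2532 in Oct4 morpholino embryos and 728, 1195 and 1016 in uninjected embryos (1.44, adjusted p = 0.00106, over 24 arrays 0.0222), with its dim probe sets near 0. Fam133b did not pass with all probe sets averaged.

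Zar1, a maternal-effect gene needed for the egg-to-embryo transition, read 529.7, 496 and 509 in Oct4 morpholino embryos and 159, 91.8 and 96.7 in uninjected embryos. The groups lay far apart (2.04, SE 0.508, adjusted p = 0.0261) but the gene did not pass over 24 arrays (adjusted p = 0.142), where the Sall4 morpholino embryos averaged 482 and their own uninjected embryos 235. Gadd45g, a stress gene induced by growth arrest and DNA damage, was dim but rose, at 116, 65.9 and 111 with the morpholino and 21.02, 16.9 and 17.03 without it (1.70, adjusted p = 0.00809), and it did not pass over 24 arrays (adjusted p = 0.0879). The remaining rises, Hadh, Dbx1, Zfp90, Fetub, Sox1, Olig1, Coq8b and Cxcl1, had fold changes of 1.71 to 2.53. They were dim, with uninjected means of 19.1 to 55.03 and Oct4 morpholino means of 112 to 323. Over 24 arrays Hadh, Dbx1, Fetub and Cxcl1 did not pass (adjusted p = 0.0915, 0.0952, 0.134 and 0.106). Coq8b did not pass against both uninjected groups (adjusted p = 0.147), and Sox1 passed in 0 of the 6 models that left out 1 array. With all probe sets averaged Hadh and Sox1 did not pass. Dbx1, Sox1 and Olig1 encode transcription factors of the developing nervous system, and Hadh an enzyme of fatty acid oxidation.

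Oct4 binds the octamer ATGCAAAT, so promoter windows of RefSeq (build GRCm38.p6, from 250 bases before to 50 after each annotated start) were searched for these letters and their reverse complement ATTTGCAT. At least 1 window of a gene held the octamer for 199 of the 12417 tested genes with a window (1.60%), for 2 of 233 genes that fell (0.858%) and for 2 of 21 genes that rose (9.52%), counts that are given as a description. Over all windows of the table the share was 1.74%. The 2 genes that rose are Gadd45g and Sox1, and they are the 2 of the 55 named genes with a window that held it, which is why their windows are shown, 5′ to 3′ on the gene's strand with the octamer in capitals. The Gadd45g window lies at chr13:51846425-51846724 on the forward strand, and the Sox1 window at chr8:12395269-12395568 on the forward strand.
Gadd45g: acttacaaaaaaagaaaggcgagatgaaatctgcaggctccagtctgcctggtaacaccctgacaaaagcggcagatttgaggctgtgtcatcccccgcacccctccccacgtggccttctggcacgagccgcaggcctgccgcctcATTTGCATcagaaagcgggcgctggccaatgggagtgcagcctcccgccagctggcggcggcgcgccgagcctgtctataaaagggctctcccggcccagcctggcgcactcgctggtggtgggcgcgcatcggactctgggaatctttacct
Sox1: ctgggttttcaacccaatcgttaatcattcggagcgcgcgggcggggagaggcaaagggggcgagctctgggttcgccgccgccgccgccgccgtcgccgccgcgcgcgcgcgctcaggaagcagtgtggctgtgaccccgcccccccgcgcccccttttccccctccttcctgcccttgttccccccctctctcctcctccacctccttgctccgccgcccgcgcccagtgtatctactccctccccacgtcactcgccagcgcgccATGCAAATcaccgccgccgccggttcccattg
In the Gadd45g window the octamer is the reverse complement and starts 103 bases before the annotated start, and in the Sox1 window it lies 18 bases past it. A match is not evidence of binding, and the Sox1 level was dim in both groups (225, 162 and 129 in Oct4 morpholino embryos and 26.1, 19.97 and 36.02 in uninjected embryos). The other probe set of Sox1 averaged 6.01 with the morpholino and 7.38 without it, a log2 difference of -0.08.

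Genes for making proteins tended to lie lower with the morpholino. Of 54 tested genes for ribosome biogenesis and the nucleolus, 7 fell and 0 rose, 48 lay below 0, and the list's median log2 fold change was -0.47, beside -0.02 for all genes. Over all genes tested 52.1% lay below 0, and among genes whose uninjected mean exceeded 1000 the share was 65.1%. The values over all genes include genes that passed the intensity filter only in groups outside this comparison. With the filter set on the groups of this comparison, 9239 genes remained, with a median of -0.07 and 419 lower. Summed levels of the list were 64009 to 88705 in Oct4 morpholino embryos and 82310 to 101450 in uninjected embryos, so the arrays overlapped in the sum. Of the 54 genes, 16 had arrays wholly below those of uninjected embryos (11.0% of all genes did) and 0 wholly above. An unadjusted p below 0.05 was found for 26 of the 54 and for 1651 of all 15478 genes. The call of single members was fragile: 0 of the 54 passed over 24 arrays, and leaving out uninjected replicate 1 or 3 lowered the 7 to 1 and 2, leaving out Oct4 morpholino replicate 2 lowered it to 1, and leaving out Oct4 morpholino replicate 1 raised it to 18.

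Utp20, a component of the small-subunit processome, had the lowest value of the 7, at 436, 188 and 127 in Oct4 morpholino embryos and 669, 479 and 624 in uninjected embryos (-1.35, SE 0.259, adjusted p = 0.00266). Ddx21, a nucleolar RNA helicase, read 1037, 519 and 739 with the morpholino and 1468, 1083 and 1733 without it (-0.92), and its dimmer probe set gave -0.15. Dkc1, the pseudouridine synthase of box H/ACA particles and of telomerase, read 1046, 1380.5 and 1396 in Oct4 morpholino embryos and 2165, 2011 and 2412 in uninjected embryos (-0.79), with 2 further bright probe sets at -0.71 and -0.73. For both Ddx21 and Dkc1 the groups stayed apart, and Oct4 morpholino replicate 1 was the highest array of its group for Ddx21 but the lowest for Dkc1. Gnl3, a nucleolar GTP-binding protein, Noc2l, Ftsj3 and Dcaf13, all of the nucleolus, fell with values of -1.11 to -0.77. Their arrays did not overlap between the groups; a dim probe set of Noc2l gave 0.39.

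Among 48 translation factors, 8 fell and 0 rose, with a median of -0.31 and 33 below 0. Among all genes with an uninjected mean above 1000, 65.1% lay below 0. Without single arrays the 8 became 2 (uninjected replicate 3), 3 (uninjected replicate 1 or Oct4 morpholino replicate 2), 5 (Oct4 morpholino replicate 3) and 15 (Oct4 morpholino replicate 1), and with all probe sets averaged 3 fell and the median was -0.13. The clearest was Eif3e, a subunit of initiation factor eIF3, at 346, 304 and 445 in Oct4 morpholino embryos and 1695, 1433 and 1632 in uninjected embryos. Its fold change of -2.09 (SE 0.174) had the smallest adjusted p of all genes (5.85e-09, over 24 arrays 0.000106, over the 6 arrays alone 0.0462), and the other bright probe sets gave -2.24 and -1.79. Other eIF3 subunits were lower as well: Eif3c read 2401, 1434 and 1370.5 with the morpholino and 4428, 3422 and 4394 without it (-1.26, adjusted p = 0.000242), and 3 further probe sets gave -1.497 to -1.37. Eif3d read 140.1, 179 and 177 in Oct4 morpholino embryos and 446, 489.6 and 531 in uninjected embryos (-1.48, adjusted p = 0.011). Eif3c, Eif3d and Eif3e are the 3 of the 8 that passed over 24 arrays. Eif3d depended on the comparison group: the uninjected embryos of the Sall4 experiment averaged 216, the uninjected groups differed from each other (1.27, adjusted p = 0.0395), and against both of them Eif3d gave -0.85 (adjusted p = 0.0957); its dimmer probe set gave 0.08.

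Probe sets disagreed for others. Eif4e, the cap-binding protein, read 3507, 2678 and 3235 in Oct4 morpholino embryos and 4849.9, 4065 and 4850.0 in uninjected embryos on the probe set tested (-0.55, adjusted p = 0.0345), but a second bright probe set lay at 2984 and 2941, and over all its probe sets the mean difference was 0.10. Eif3h passed at -0.91 on its bright probe set, while its 2 dim probe sets gave 0.48 and 0.88. Eif2s3x, a subunit of the factor that carries initiator tRNA, gave -0.74 with 2 further bright probe sets at -0.68 and -0.67. Eif6, which keeps ribosomal subunits apart, gave -0.75 with another probe set at 0.69, and Gspt1, a release factor, gave -0.91, with a second probe set at 228 with the morpholino and 452 without it and 4 dim ones between -1.83 and 0.41.

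Of 45 proteasome subunits, which form the complex that degrades ubiquitin-tagged proteins, 7 fell and 0 rose, with a median of -0.36 and 36 below 0. The sum over the list was 25037 to 33684 in Oct4 morpholino embryos and 34290 to 40118 in uninjected embryos, so these arrays did not overlap. Psmb5, the chymotrypsin-like catalytic subunit, read 37.9, 14.8 and 4.82 with the morpholino and 142, 86.3 and 135 without it (-2.05, SE 0.331, adjusted p = 0.000327). It was dim, and it alone of the 7 passed over 24 arrays (adjusted p = 0.0156). Psmd14, the deubiquitinase of the lid, read 1204, 734 and 973 in Oct4 morpholino embryos and 2023, 1362 and 1941 in uninjected embryos (-0.87, adjusted p = 0.00833).

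Psma6, of the alpha ring, read 1081, 547 and 699.6 in Oct4 morpholino embryos and 1341, 1269.6 and 1366 in uninjected embryos (-0.82, adjusted p = 0.00849), and a second bright probe set gave -1.07. Psmc5, an ATPase of the base, read 312, 144 and 155 with the morpholino and 536, 381 and 607 without (-1.31, adjusted p = 0.0108). In Psmd14, Psma6 and Psmc5 the groups stayed apart and Oct4 morpholino replicate 1 was nearest to the uninjected arrays. Psma1, Psmb4 and Psmc2 had values of -1.02 to -0.85; for Psmc2 the groups overlapped, as Oct4 morpholino replicate 1 read 819 against 253 and 319 on its replicates. The number of proteasome genes that fell was 13 without Oct4 morpholino replicate 1, 1 without replicate 2 and 2 without uninjected replicate 1 or 3.

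Of 46 ribosomal proteins tested, 2 fell and 1, Rps6, rose. Of the 46, 40 lay below 0 and the median was -0.27. With the Sall4 morpholino at 20 h the list's median was -0.22, beside 0.03 for all genes, so that lean was not particular to the Oct4 morpholino. With the control morpholino the list's median was 0.04, beside -0.02 for all genes. Rpl41 read 3560.1, 2470.0 and 3460.1 in Oct4 morpholino embryos and 5061, 4546 and 5050.2 in uninjected embryos (-0.64, adjusted p = 0.023, over 24 arrays 0.12), and Rpl37a averaged 1156 ± 384 in Oct4 morpholino embryos and 2094 ± 376 in uninjected embryos (SD, n = 3 each, -0.88, adjusted p = 0.0476, over 24 arrays 0.232). Against both uninjected groups Rpl41 passed in limma's test (adjusted p = 0.00387) and Rpl37a did not (adjusted p = 0.187). Ribosomal protein genes have many processed copies in the genome, so probe sets of Rps6, Rpl41 and Rpl37a may also detect those copies, which was not tested. Splicing factors numbered 3 lower and 1 higher of 45 (median -0.17). Besides Snrpb2, these were Prpf4 (-1.18) and Snrnp40 (-1.27), of the U4/U6 and U5 particles, and Snrnp200 (-0.79), the helicase that unwinds U4 from U6. Over 24 arrays these 3 did not pass (adjusted p = 0.0895, 0.129 and 0.197), and the arrays of Snrnp40 overlapped between the groups. Of 72 genes of oxidative phosphorylation 0 passed and 8 had an unadjusted p below 0.05 (1651 of all 15478 genes did). Their median was -0.14 and 50 lay below 0.

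**Figure D3:**
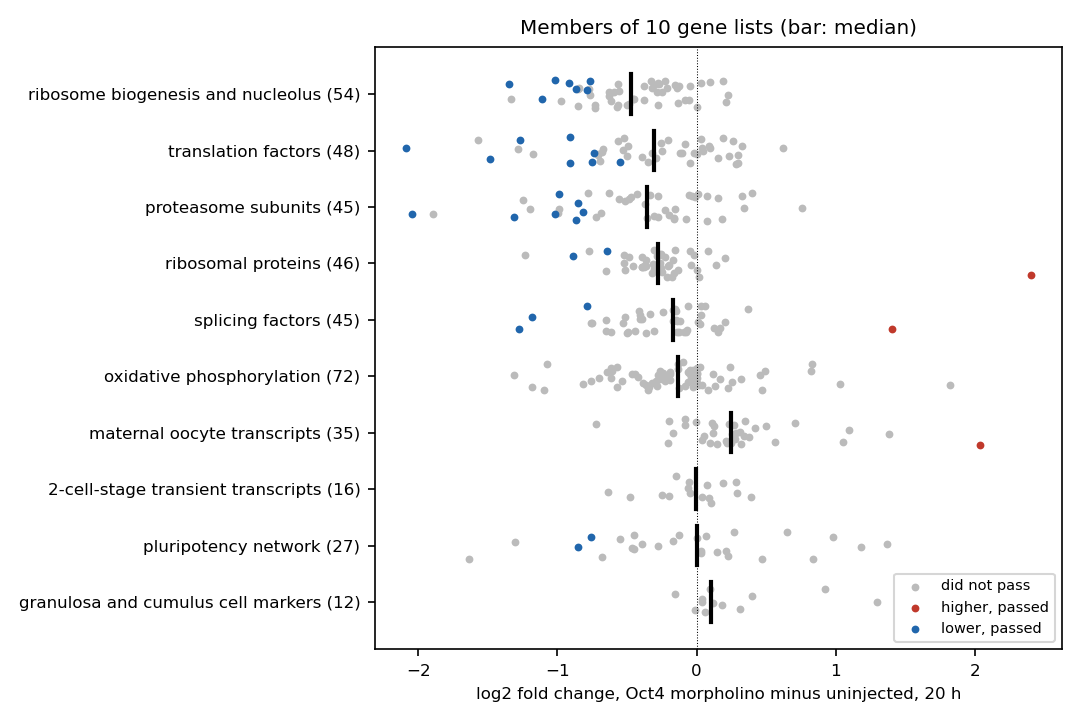
Log2 fold change (horizontal axis, Oct4 morpholino minus uninjected) of each tested member of 10 gene lists, with the number of members in parentheses and a bar at the list's median. Blue and red points passed as lower and higher. Medians lie between -0.47 and -0.14 for the upper 6 lists and at 0.25 for maternal oocyte transcripts.

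Genes of DNA replication and chromatin gave a few clear values. Mcm5, a subunit of the replicative helicase, read 828, 557 and 691 in Oct4 morpholino embryos and 2218, 1797 and 2119 in uninjected embryos (-1.55, SE 0.254, adjusted p = 0.000365, over 24 arrays 0.0157). No Oct4 morpholino array came near the uninjected arrays, and its dimmer probe sets gave -2.33 and -0.05; Mcm5 was the 1 gene of 49 of the cell cycle and DNA replication list to pass. Hat1, which acetylates newly made histone H4, read 141, 90.8 and 94.4 with the morpholino and 344, 195 and 339.5 without it (-1.29, adjusted p = 0.0014, over 24 arrays 0.0273). Hdac1, a histone deacetylase, read 1010.4, 1018 and 903 in Oct4 morpholino embryos and 1596, 1587 and 1552 in uninjected embryos (-0.68, adjusted p = 0.00533, over 24 arrays 0.0574). Hat1 and Hdac1 were the 2 of 55 chromatin regulators that passed, both lower, and the list's median was -0.12.

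Tet1, which oxidises 5-methylcytosine, was dim at 8.91, 49.05 and 45.2 with the morpholino and 189, 108 and 90.04 without it (-1.59, adjusted p = 0.0125, over 24 arrays 0.09). Its other probe sets gave -1.35, -1.52 and -0.24, and it was the 1 of 14 genes of DNA methylation and demethylation that passed. Sos1, the exchange factor that couples receptors to Ras, read 517, 406 and 304 in Oct4 morpholino embryos and 1254, 703 and 1287 in uninjected embryos (-1.35, adjusted p = 0.00043, over 24 arrays 0.0157). Stk4, a Hippo pathway kinase, gave -0.91 (adjusted p = 0.047, over 24 arrays 0.121) and lost its call in 14 of the 20 settings, and Celf1, an RNA-binding protein of mRNA decay, gave -1.06 (adjusted p = 0.00809, over 24 arrays 0.0427), though a second probe set of Celf1 lay at 655 against 562. Each was the 1 member of its list to pass, of 21 genes of FGF signalling, 19 of the Hippo pathway and 38 of mRNA decay and storage.

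Maternal oocyte transcripts leaned the other way, and Zar1 was the single gene to pass. Of 35 tested, 1 (Zar1) rose and 0 fell, 7 lay below 0, and the median was 0.25; 15 had arrays wholly above those of uninjected embryos, where 8.57% of all genes did. The summed level was 77528 to 82860 in Oct4 morpholino embryos and 67543 to 71316 in uninjected embryos, with no overlap. Nobox, an oocyte homeobox factor, read 642, 669 and 793 with the morpholino and 204, 604 and 135 without it (1.38, adjusted p = 0.442). H1f8, the oocyte linker histone, read 468, 596 and 695 in Oct4 morpholino embryos and 279, 298 and 218 in uninjected embryos (1.10, adjusted p = 0.466), and Gdf9, an oocyte growth factor, averaged 955 ± 106 in Oct4 morpholino embryos and 670.0 ± 75.9 in uninjected embryos (SD, n = 3 each, adjusted p = 0.416). In uninjected embryos of the Nanog experiment, 23 of the 35 fell and 1 rose between 20 h and 44 h, with a median of -1.53; over all genes tested 16.3% fell and 9.28% rose with that time.

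Of 16 transcripts of the 2-cell stage 0 passed (1 had an unadjusted p below 0.05), the median was 0.00, and the sums were 31016 to 40162 in Oct4 morpholino embryos and 34527 to 35559 in uninjected embryos. The lowest and highest fold changes were those of Eif1a at 722 ± 192 in Oct4 morpholino embryos and 1115 ± 185 in uninjected embryos and Usp17la at 3255 ± 718 in Oct4 morpholino embryos and 2490.2 ± 641 in uninjected embryos (SD, n = 3 each, adjusted p = 0.0971 and 0.983). Immediate early genes, which respond to stress and handling, had 0 of 25 members past the threshold and a median of 0.39. An unadjusted p below 0.05 was found for 4 of the 25 and for 1651 of all 15478 genes. Of the 25, 6 lay below 0 (52.1% of all genes did), 6 had arrays wholly above those of uninjected embryos and 0 wholly below. Over all genes tested 8.57% lay wholly above and 11.0% wholly below. The list's sums of 10942 to 14331 in Oct4 morpholino embryos and 8855 to 10901 in uninjected embryos did not overlap. Jun, of the AP-1 factor, stood out at 1334, 918 and 701 in Oct4 morpholino embryos and 119.7, 193 and 39.04 in uninjected embryos; the groups did not overlap, but its value of 3.06 did not pass (SE 0.995, adjusted p = 0.118) in the test over all arrays and passed over 24 arrays (adjusted p = 0.0205). Of 22 p53 targets and DNA damage genes only Gadd45g passed; Pmaip1, a pro-apoptotic BH3 gene, averaged 214 ± 54.5 in Oct4 morpholino embryos and 64.8 ± 52.1 in uninjected embryos (SD, n = 3 each, adjusted p = 0.301). The lists of heat shock chaperones, glycolysis, trophectoderm, primitive endoderm, tight junctions and polarity, general transcription factors, granulosa cells, and blood and stroma held 0 genes that passed limma's adjusted threshold, and each held 0 to 8 at an unadjusted p below 0.05.

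Injection against Sall4 at the same time gave a measure of what another oligomer did. Sall4 morpholino embryos differed from their own uninjected embryos in 36 genes (0.233% of those tested), and control morpholino embryos from uninjected embryos of the Nanog experiment in 14 (0.0905%). Of the 285 genes that fell with the Oct4 morpholino, 0 fell and 1 rose after injection against Sall4. There 13 of all genes were lower. The median of the 285 was -0.08, beside 0.03 for all genes, and 168 of the 285 lay below 0, beside 47.0% of all genes. In control-injected embryos at 20 h 0 of the 285 passed, where 5 of all genes were lower. The 285 then had a median of 0.04, beside -0.02 for all genes, and 108 lay below 0, beside 53.8%. So few genes were lower in either comparison that the counts of 0 cannot decide whether the falls were particular to the Oct4 morpholino. The Nanog morpholino, set against the control morpholino of its own experiment at 20 h, gave other values: 9 of the 285 were lower there and 0 higher, where 60 of all genes were lower (0.388%). That share is not a like background, because the genes that passed had a lower spread on the Nanog arrays than all genes. With the Nanog morpholino 247 of the 285 lay below 0, beside 52.4% of all genes, and their median was -0.23, beside -0.02 for all genes. Ecsit was among the 9, at -1.37 (adjusted p = 0.0301). For the 27 genes that rose the medians were 0.23 with the Sall4 and -0.06 with the control morpholino. Effects were also tested against each other: 86 genes (0.556%) differed between the Oct4 and the Sall4 effect, 78 of them lower with the Oct4 morpholino, and 59 of the 86 are genes that had fallen. Between the Oct4 and the control morpholino effect 82 genes differed (0.530%), 72 of them lower, and 60 had fallen. Both differences contain the Oct4 effect by which the 285 genes were chosen. The overlaps of 59 and 60 are therefore in part built in and are not separate evidence.

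Values for a few of these genes follow. Eif3e averaged 1100.2 ± 255 with the Sall4 morpholino and 1342 ± 213 in its uninjected embryos, and its 2 effects differed by -1.79 (adjusted p = 0.000283). Mcm5 averaged 2104 ± 384 with the Sall4 morpholino and 2009 ± 141 without, with overlapping arrays; the difference of effects was -1.61 (adjusted p = 0.029). Rps6 averaged 224 ± 32.1 with the Sall4 morpholino and 204 ± 124 in its uninjected embryos, and the difference from the Sall4 effect, 2.11, did not pass (adjusted p = 0.109), while that from the control effect, 2.56, did (adjusted p = 0.0316). The control oligomer was tested only in the Nanog experiment, whose arrays are on a higher scale, so that these differences compare effects and not levels. The differences from the Sall4 effect numbered 14 over the 24 arrays and 0 over their own 12, where 1332 genes had an unadjusted p below 0.05.

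**Figure D4:**
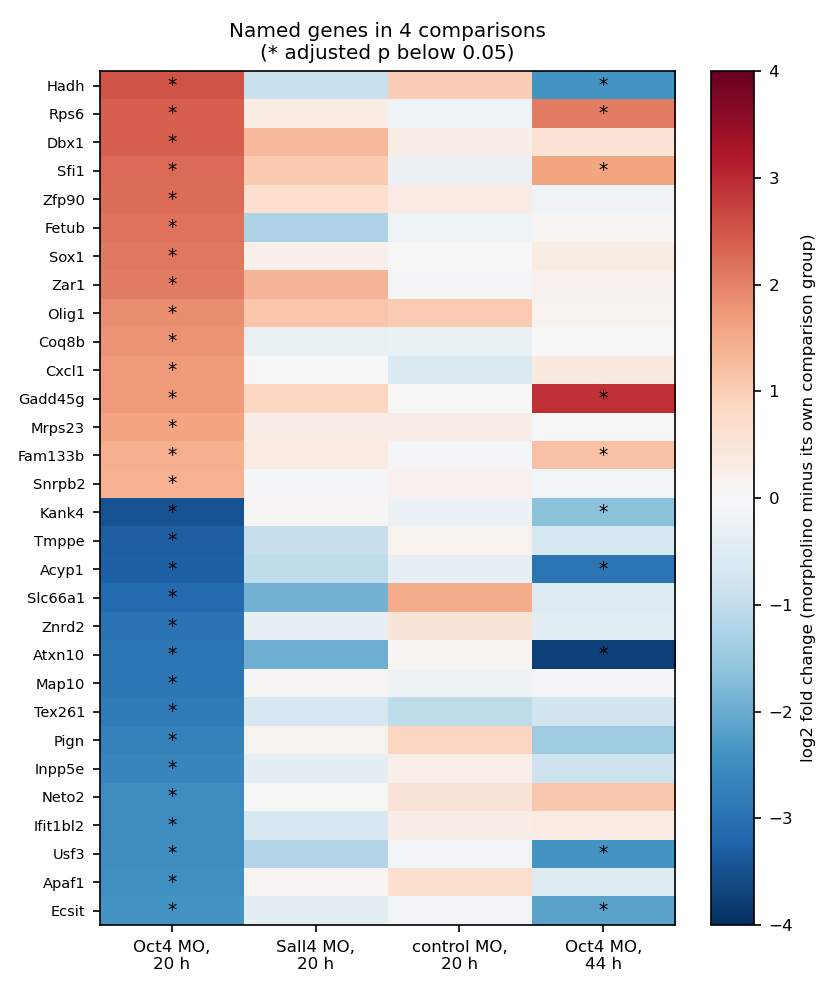
Log2 fold change of the 15 largest rises (upper rows) and 15 largest falls (lower rows) with the Oct4 morpholino at 20 h, and of the same genes with the Sall4 and control morpholinos at 20 h and the Oct4 morpholino at 44 h, each against its own comparison group. Stars mark an adjusted p below 0.05; in the first column every gene passed because the genes were chosen there, and none of the 30 has a star for the Sall4 or control morpholino.

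By 44 h, when Oct4 morpholino embryos were set against embryos injected with the control oligomer, 957 genes were lower (6.18%) and 832 higher (5.38%). Of the 285 genes that had fallen at 20 h, 65 also fell and 6 rose at 44 h, 22.8% and 2.11% of the 285, and of the 27 that had risen 8 rose and 1 fell. Both times were tested in the same fit. There the median SD within groups over 42 arrays was 0.301 for the 312 genes that passed at 20 h, beside 0.500 for all genes. Genes with a low spread pass more easily in any comparison of that fit, so the shares over all genes are not a like background. The effects of 606 genes (3.92%) differed between the times, 354 being lower at 20 h; the comparison groups differ in kind, uninjected at 20 h and control-injected at 44 h. Eif3e was at 645 ± 129 in Oct4 morpholino embryos and 4339 ± 289 in control-injected embryos at 44 h (mean ± SD, n = 3, log2 fold change -2.74, adjusted p = 1.41e-12). Mcm5 averaged 449 ± 249 with the Oct4 morpholino and 1990.0 ± 197 with the control at 44 h (-2.23, adjusted p = 4.41e-07), and Hat1 gave -2.03 (adjusted p = 5.39e-07). All 3 had thus fallen at both times.

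Rises that recurred included Rps6, at 2345 ± 217 with the Oct4 morpholino and 555 ± 84.7 with the control at 44 h (2.06, adjusted p = 0.000921), Sfi1 (1.58), Fam133b (1.17) and Gadd45g (2.91). Snrpb2 did not recur: it averaged 1403 ± 82.1 with the Oct4 morpholino and 1504 ± 111 with the control (-0.10, adjusted p = 0.811), and the difference between its effects at the 2 times was 1.50 (adjusted p = 0.000278). Hadh, higher at 20 h, was lower at 44 h (-2.39, adjusted p = 0.0184), and the effects differed by 4.92 (adjusted p = 0.003). Pou5f1 mRNA, which had not passed at 20 h, averaged 2218 ± 259.9 with the Oct4 morpholino and 3925 ± 456 with the control at 44 h, and its effects differed between the times by 1.04 (adjusted p = 0.0201). For Sall4 mRNA the difference between the times was 0.23 (adjusted p = 0.782), which did not pass.

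**Figure D5:**
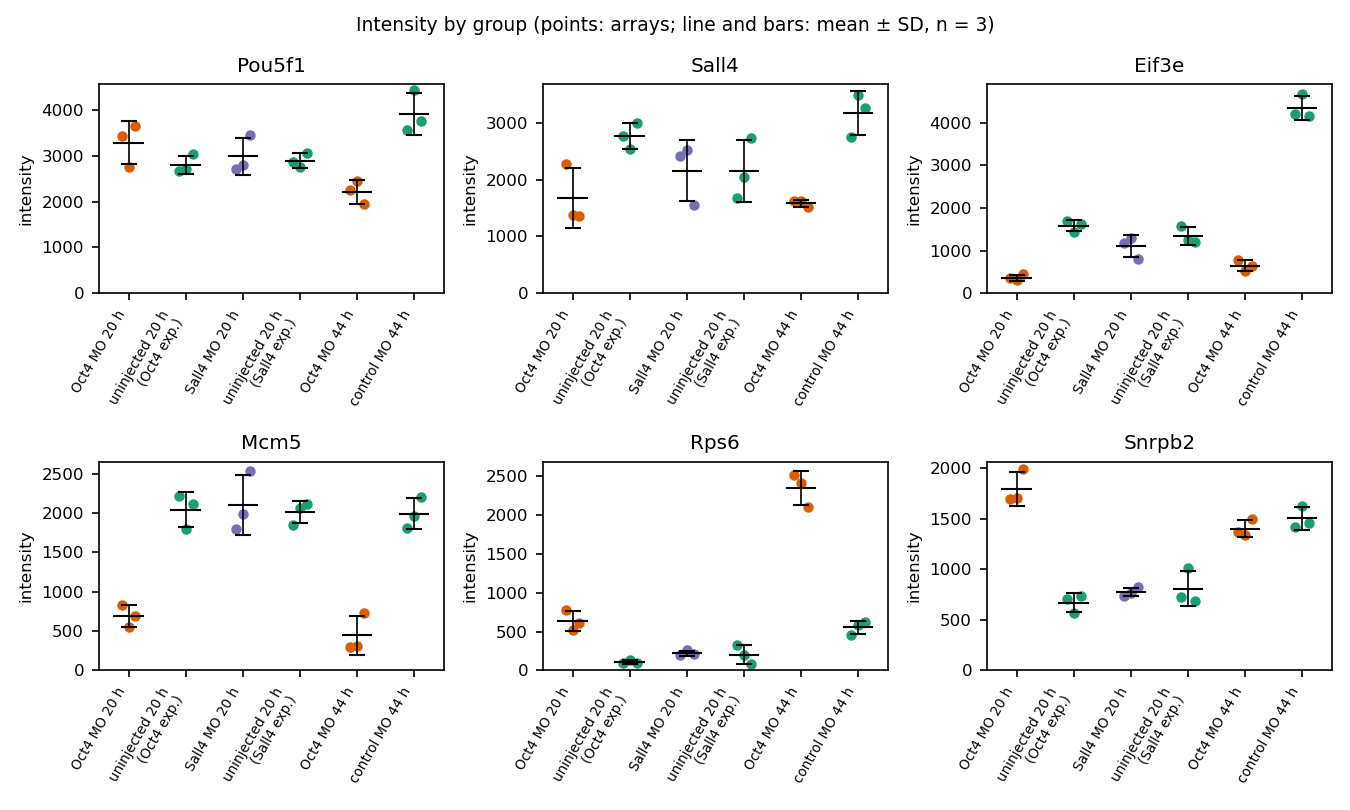
Intensity of 6 genes in 6 groups of the Oct4 and Sall4 experiments, with points for arrays and a line and bars for the mean ± SD (n = 3). Eif3e and Mcm5 are low and Rps6 is high with the Oct4 morpholino at 20 h and at 44 h, relative to the group to the right of each, while the Sall4 morpholino embryos overlap their uninjected embryos in all 6 genes.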

How the data were processed

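The deposited table gives a linear intensity for each of 45101 probe sets on 42 arrays. The authors' steps from scans to intensity, any normalization included, are not given in the sources used here. Per the labels' protocols the RNA was amplified before labelling. The 18 arrays of the Nanog experiment lie on a higher scale than the other 24, so levels are compared only within an experiment. Values were used as deposited, as log2(intensity + 16).

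The platform annotation named the probe sets (34945 with 1 gene symbol, 932 with several, 9160 with none). Each of 18193 genes was represented by the probe set with the highest mean log2 value, and 15478 genes were kept whose mean log2 value in at least 1 of the 14 groups exceeded that of the table's median, an intensity of 71.15. One limma 3.58.1 model (R 4.3.3) with a mean per group over 42 arrays, 28 residual degrees of freedom and no block gave two-sided tests with Benjamini-Hochberg adjustment. The fit was also run on simulated data, whose outcome is not given here.

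Titles number the arrays as biological replicates; whether they are separate collections is not stated further, and p-values measure the spread between arrays, whose number limits the precision. Named genes were Pou5f1, Sall4 and Nanog; the 15 largest rises and 15 largest falls among genes that passed, with arrays that do not overlap and the brighter mean above the table's median; each list member that passed; and the 5 largest differences between effects on each side. Other genes given with values were chosen from the lists after their values were seen. Members and the 27 gene lists were chosen with earlier results of these data known. Alternatives covered the pseudocount, scaling, probe set rule, filter, arrays in the fit, array weights, a replicate block and leaving out each array. The reference to both uninjected groups of 20 h was added after seeing the data. Promoters are those of RefSeq, GRCm38.p6. Figures were drawn with matplotlib 3.10.9 in Python 3.11.15.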

Additional observations from a re-analysis of the deposited data

Results flagged for a closer look

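Effects that differed between experiments or times by a test of the difference itself are given here as log2 differences, first effect minus second effect, where an effect is injected minus its own comparison group.

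Between the Oct4 and the Sall4 morpholino at 20 h, 86 genes differed. The lowest values were those of Psmb5 (-3.53), Kank4 (-3.53), Sort1 (-3.48), Smarcad1 (-3.35) and Chmp4b (-3.20). The highest were Lmo4 (5.41), Trh (4.22), Fetub (3.43), Snord104 (2.75) and Prss44 (2.06). Psmb5 changed in opposite directions, at -2.05 with the Oct4 and 1.49 with the Sall4 morpholino, and passed in both. The uninjected groups of these experiments differed for Psmb5, at 121 in the Oct4 and 45.6 in the Sall4 experiment (log2 difference 1.34, adjusted p = 0.0301), and the Sall4 morpholino embryos averaged 135. Lmo4 and Trh passed with the Sall4 morpholino (-4.45 and -3.30) and not with the Oct4 morpholino (0.95 and 0.92). Their uninjected embryos averaged 19.8 and 65.3 in the Oct4 experiment but 537 and 667 in the Sall4 experiment. For Smarcad1 and Chmp4b the uninjected means were 327 and 172 in the Oct4 experiment and 46.0 and 16.55 in the Sall4 experiment. The part of the uninjected groups in these differences was not tested.

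Between the Oct4 and the control morpholino at 20 h, 82 genes differed. The lowest values were Slc66a1 (-4.60), Tmppe (-3.45), Zxdc (-3.44), Rint1 (-3.39) and Kank4 (-3.28), and the highest Egfl6 (3.63), Prss8 (3.61), Igfbp5 (3.35), Rpap2 (2.57) and Rps6 (2.56). Zxdc and Egfl6 passed with the control morpholino (2.82 and -3.14) and not with the Oct4 morpholino (-0.62 and 0.49). The control morpholino belongs to the Nanog experiment, whose arrays are on another scale, and experiment and oligomer cannot be told apart.

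Between the Oct4 effects at 20 h and at 44 h, 606 genes differed. The lowest values were Rgcc (-5.50), 5730409E04Rik (-4.78), Stk10 (-4.12), Marchf3 (-3.96) and Ccser1 (-3.88). The highest were Csnk1e (4.94), Hadh (4.92), Dph6 (4.88), Hint2 (4.84) and Slc25a4 (4.77). Hadh was the one of these 10 to pass at 20 h.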

How the results depend on the processing

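The 312 genes became 108 with the 24 arrays of the Oct4 and Sall4 experiments, 13 with the 6 arrays alone, 194 with all probe sets averaged, 942 with array weights and 619 (78.0% lower, against 91.3%) against both uninjected groups of 20 h. Without single arrays the count ran from 97 to 528. Pseudocounts, scalings and filters gave 251 to 468, with 215 to 419 lower. The 86 differences from the Sall4 effect became 57 with averaged probe sets, 14 with 24 arrays, 0 with their 12 arrays (1332 at an unadjusted p below 0.05) and 200 with array weights, and ran from 31 (uninjected replicate 1 left out) to 162 (Oct4 morpholino replicate 1). The 82 differences from the control effect became 44 with averaged probe sets, 12 with their own arrays and 184 with array weights, and 20 to 169 on leaving out the same arrays; they have no value over 24 arrays. The 606 differences between times became 366 with 24 arrays and 990 with array weights, and 328 to 644 likewise. Without uninjected replicate 3, Oct4 morpholino replicate 2 and Oct4 morpholino replicate 3 these 3 counts were 40, 50 and 57, then 34, 35 and 56, then 361, 388 and 400. The cause of these shifts was not tested.

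Of the 66 named genes that passed, 29 also passed with 24 arrays, 8 with the 6 arrays alone, 57 against both uninjected groups and 21 without each array in turn. Eif3h and Eif4e turned to 0.15 and 0.10 with the mean of all probe sets. The 7 genes of ribosome biogenesis, 8 translation factors and 7 proteasome subunits that fell became 0, 3 and 1 with 24 arrays. With the replicate block 362 genes passed, 274 of them shared with the 312. Deviations of equally numbered arrays correlated at 0.0916, 0.0368 and -0.0078, the first being the highest of all pairs. Oct4 morpholino replicate 3 correlated best with uninjected replicate 2 (0.0615). Deviations from a mean of 3 arrays sum to 0 within a group, so these values cannot decide whether the numbers pair the groups.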

Other observations

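Some genes outside the lists, named after their values were seen, add to the picture. Sirt1, a deacetylase of histones and other proteins, read 251, 195 and 301 in Oct4 morpholino embryos and 916, 703 and 936 in uninjected embryos (-1.72, adjusted p = 4.62e-06 in limma's test). Stag2, a cohesin subunit, read 684, 586 and 366 with the morpholino and 1802, 1189 and 1686 without it (-1.51, adjusted p = 1.67e-05). Bmpr1a, a receptor for bone morphogenetic proteins, read 346, 333 and 244 in Oct4 morpholino embryos and 1064, 819.6 and 912 in uninjected embryos (-1.56, adjusted p = 0.0014), and Tfrc, the transferrin receptor, read 1088, 764 and 412 with the morpholino and 2260.1, 1867 and 1955 without it (-1.51, adjusted p = 0.00142). The groups of these 4 genes did not overlap, and each also passed over 24 arrays.

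Some bright genes rose by small amounts. Rnf114, a ubiquitin ligase, read 3509.7, 3098 and 3897 in Oct4 morpholino embryos and 1730.2, 2504 and 2013 in uninjected embryos (0.76, adjusted p = 0.0476 in limma's test). Rnf185, another ubiquitin ligase, read 5159.6, 4772 and 5038 with the morpholino and 3375, 3443 and 2919 without it (0.62, adjusted p = 0.0499). The groups stayed apart in both genes, but neither passed over 24 arrays.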
